A study of Saccharomyces cerevisiae with 6 samples.

Results

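Haploid budding yeast cells of mating type a express a small set of genes that alpha cells keep off, and 6 of them are described here: MFA1, MFA2, STE6, STE2, BAR1 and AGA2. They were taken as the probe sets annotated to these symbols in the table of deposited log2 values, which gave 1 probe set per gene and 6 of the 5449 genes tested. RNA came from Saccharomyces cerevisiae cells labelled BY4741, grown in the rich medium YPD and treated for 3 hours with 1% DMSO (the solvent control), rapamycin at 200 nM or the small molecule coded CID 3528206 at 20 µM. Each of the 3 groups had 2 Affymetrix arrays. Rapamycin inhibits TOR complex 1, the kinase complex that ties growth to nutrient supply, and the series asks how expression after the compound compares with that after rapamycin. The concentrations of the 2 agents differ, and the sources used here do not say whether DMSO was also present with them. The labels speak of duplicates but not of separate cultures, so p-values measure the spread between these arrays, which may be technical.

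MFA1 and MFA2 encode precursors of a-factor, the lipid-modified pheromone that a cells send to alpha cells, and STE6 encodes the ABC transporter that exports it. STE2 encodes the receptor for alpha-factor, BAR1 a secreted protease that degrades alpha-factor, and AGA2 the binding subunit of a-agglutinin, which joins mating cells and is anchored to the wall by the AGA1 protein. In alpha cells the alpha2 repressor, with Mcm1 and the Tup1-Cyc8 corepressor, turns these genes off, while in a cells Mcm1 helps to turn them on.

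Levels are log2 values after RMA, which corrects background, equalises the arrays and summarises the probes of a set. The 1746 probe sets for another yeast, Schizosaccharomyces pombe, served as background, with a 95th percentile between 4.27 and 4.38 and a 99th between 4.93 and 5.24 over the 6 arrays. The median of the genes tested was 10.08 to 10.11 on every array. For 8 yeast genes with control probe sets at each end, the 3' level minus the 5' level, a sign of RNA or labelling quality, was 1.43 for CID 3528206 replicate 1 and 0.68 to 0.90 for the other 5 arrays. Replicate arrays differed with a standard deviation over genes of 0.27 log2 units for the compound and 0.12 each for DMSO and rapamycin. Errors after ± are limma standard errors of a log2 difference (n = 2 arrays in each group). Adjusted p values come from the same limma fit with Benjamini-Hochberg adjustment over the 5449 genes and a threshold of 0.05. The number of arrays limits the precision.

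BY4741 is known as an a strain that lacks LEU2, URA3, MET17 and HIS3, and the markers measured here went against that label in all 6 arrays. HMRA1, whose sequence is that of the a1 regulator made by a cells, lay at 2.61 to 3.23, under the 95th percentile of the background in every array. The 6 measured alpha cell genes lay between 8.59 and 13.47 and the 4 genes absent from BY4741 between 10.39 and 12.11, above the 99th percentile in every array. The 6 a-cell genes lay above the 95th percentile in all 6 arrays, between 4.89 and 8.24. AGA2 was under the 99th percentile in both DMSO arrays. The strain is therefore named only as its label gives it. In RNA from a whole culture, a change in the share of cells of one type and a change in the level per cell cannot be told apart.

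**Figure D1:**
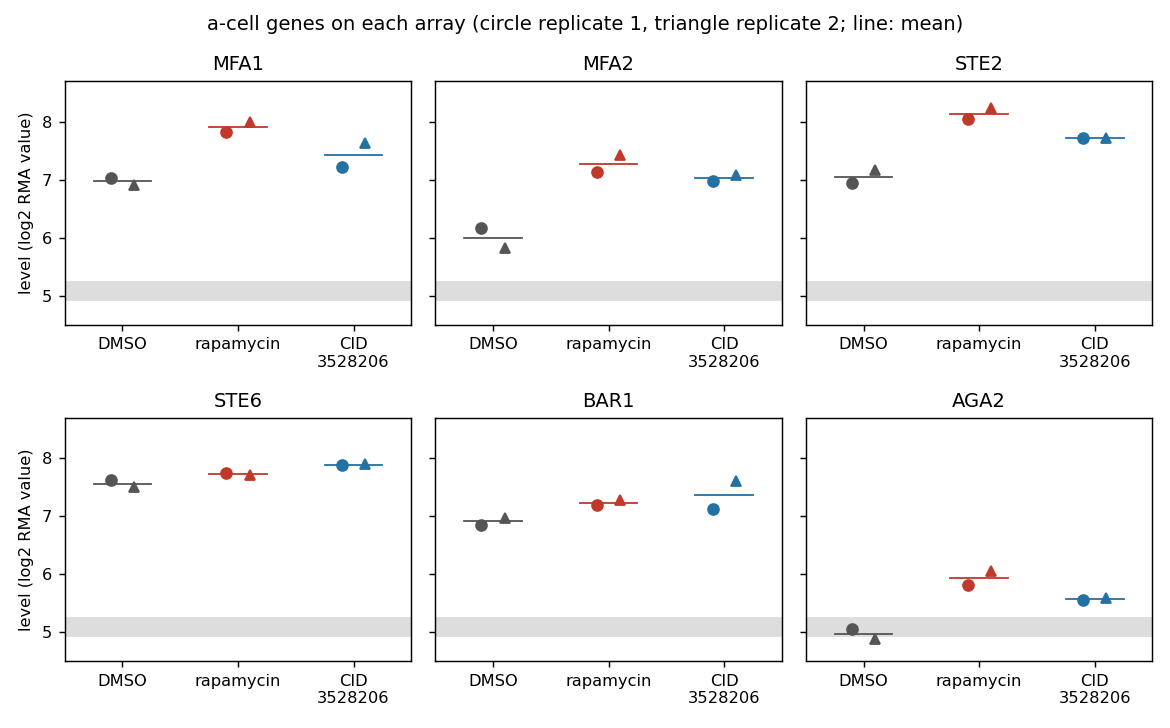
Level (log2 RMA value) of each a-cell gene on each of the 6 arrays, by group, with circles for replicate 1, triangles for replicate 2 and a line at the mean of the 2 arrays; the grey band spans the 99th percentile of the background, 4.93 to 5.24. MFA2 moves from 5.83 and 6.16 after DMSO to 7.13 and 7.43 after rapamycin, while STE6 stays between 7.50 and 7.90.

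After rapamycin, the 2 a-factor genes, the receptor gene and the agglutinin gene were higher than after DMSO by close to 2-fold, while the transporter and protease genes did not pass the test. Of the 6 genes 4 (MFA1, MFA2, STE2 and AGA2) rose and 2 (STE6 and BAR1) did not pass, where 26.5% of all genes tested rose and 52.7% passed in either direction. The median log2 difference of the 6 was 0.95 (0.60 after quantile normalization), beside -0.02 for all genes tested. The 6 were in the third of genes lowest in mean level, so -0.02 is not a median at their level. For 6 of the 6 genes the lower rapamycin array was above the higher DMSO array, as for 40.7% of all genes tested, and 84.9% of all genes had no overlap in either direction. At least 2-fold rises were called for MFA2 and STE2, and for 5.98% of all genes. Quantile normalization brought both under 2-fold, with log2 differences of 0.96 for MFA2 and 0.82 for STE2, and STE2 was also under it without DMSO replicate 1 (0.98) and without rapamycin replicate 2 (0.99).

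MFA2 (probe set 1776117_at) read 6.16 and 5.83 after DMSO and 7.13 and 7.43 after rapamycin. Its log2 difference of 1.28 ± 0.15 is a 2.43-fold rise (adjusted p = 0.000927), and 225 of the genes tested had a larger one. MFA1 (1776218_at), the other a-factor gene, read 7.03 and 6.91 after DMSO and 7.83 and 7.99 after rapamycin. The lower rapamycin array stood 0.80 log2 units above the higher DMSO array, and the rise was 1.92-fold (0.94 ± 0.15, adjusted p = 0.00283).

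The receptor gene STE2 (1773157_at) read 6.94 and 7.16 after DMSO and 8.04 and 8.24 after rapamycin, a 2.12-fold rise (1.09 ± 0.11, adjusted p = 0.000465). AGA2 (1776992_at), at the edge of the background after DMSO with 5.06 and 4.89, read 5.82 and 6.06 after rapamycin. It rose 1.95-fold (0.97 ± 0.10, adjusted p = 0.000691), with no overlap between the groups.

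STE6 (1773254_at) read 7.63 and 7.50 after DMSO and 7.75 and 7.71 after rapamycin. The groups were 0.08 log2 units apart at their nearest arrays, and the difference of 0.17 ± 0.07 did not pass (adjusted p = 0.0965, 95% interval -0.01 to 0.34). BAR1 (1778408_at) read 6.85 and 6.98, then 7.19 and 7.28, a difference of 0.32 ± 0.16 that did not pass (adjusted p = 0.142, 95% interval -0.07 to 0.71). The interval for BAR1 reaches up to 0.71 and that for STE6 up to 0.34, both under the log2 difference of 1 that marks a 2-fold change.

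The 4 rises after rapamycin passed in all 16 alternative settings that kept the genes, with adjusted p of at most 0.0239. Not all of these settings are separate fits. Here leaving out either compound array and fitting only the 4 arrays compared are the same fit. Averaging probe sets also left these log2 differences as they were. Quantile normalization of the tested genes lowered the log2 difference of MFA1 to 0.62 and that of AGA2 to 0.59. It turned those of STE6 (-0.08) and BAR1 (-0.03). BAR1 passed in the fit on the 4 arrays compared (adjusted p = 0.00692), where the spread comes from the DMSO and rapamycin arrays alone. Both BAR1 and STE6 passed with the 3' to 5' difference as a covariate. That difference was 1.43 for replicate 1 of the compound and 0.68 to 0.90 for the other arrays. The covariate therefore mainly sets that array apart. Over all genes tested, 3891 passed after rapamycin with the covariate and 3698 on the 4 arrays compared, against 2873 in the reported fit. Both settings thus raised the calls over all genes, not for BAR1 and STE6 alone.

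**Figure D2:**
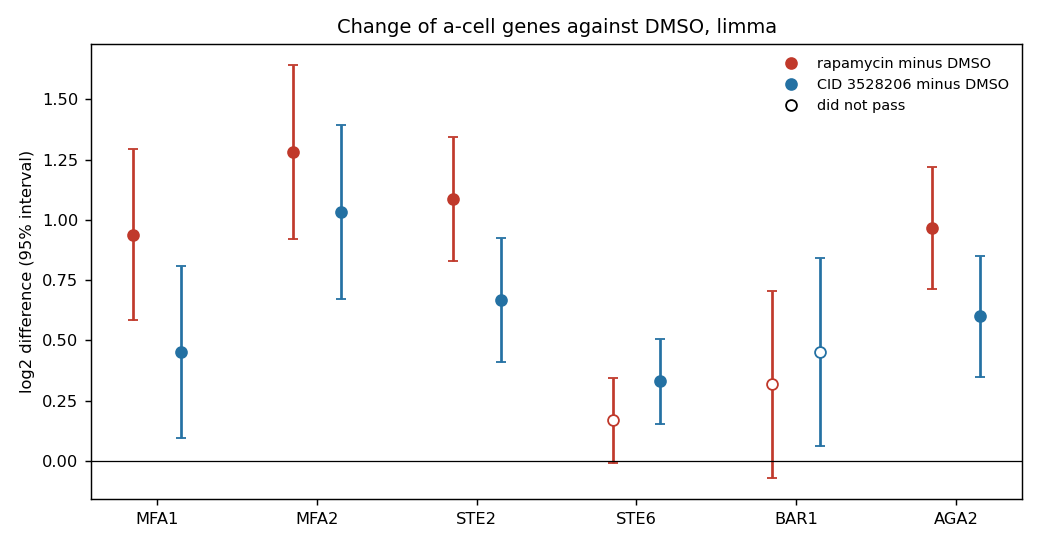
Log2 difference against DMSO of each a-cell gene after rapamycin (red) and after CID 3528206 (blue), with 95% intervals from limma and open symbols for genes that did not pass. The rapamycin values run from 0.17 for STE6 to 1.28 for MFA2 and the compound values from 0.33 for STE6 to 1.03 for MFA2.

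After CID 3528206 the a-cell genes were also higher than after DMSO, with MFA2 again showing the largest difference of the 6. Of the 6 genes 5 (MFA1, MFA2, STE2, STE6 and AGA2) rose and BAR1 did not pass, where 26.1% of all genes tested rose and 50.5% passed in either direction. The median log2 difference of the 6 was 0.53 (0.26 after quantile normalization), beside -0.01 for all genes tested, which are not at the level of the 6. The groups did not overlap for 6 of the 6 genes, with the compound higher, as for 37.2% of all genes tested, and for 75.8% in either direction. A rise of at least 2-fold was called for MFA2 alone of the 6, and for 5.01% of all genes. MFA2 was under 2-fold after quantile normalization (log2 difference 0.73), without DMSO replicate 2 (0.86) and without CID 3528206 replicate 2 (0.98). This comparison and the one for rapamycin share the 2 DMSO arrays.

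MFA2 read 6.97 and 7.08 after the compound, against 6.16 and 5.83 after DMSO, and rose 2.05-fold (1.03 ± 0.15, adjusted p = 0.00244). STE2 read 7.72 and 7.71, both above its DMSO values of 6.94 and 7.16, and rose 1.59-fold (0.67 ± 0.11, adjusted p = 0.0034). AGA2 read 5.56 and 5.59 and rose 1.52-fold (0.60 ± 0.10, adjusted p = 0.00474). These 3 genes, for a pheromone, a receptor and an adhesion protein, had compound arrays close to each other and clear of both DMSO arrays.

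STE6 read 7.89 and 7.90 after the compound and rose 1.26-fold (0.33 ± 0.07, adjusted p = 0.0115). MFA1 read 7.21 and 7.63, so that the lower compound array was only 0.18 log2 units above the higher DMSO array. The change was 1.37-fold (0.45 ± 0.15, adjusted p = 0.0426). BAR1 read 7.12 and 7.61 against 6.85 and 6.98 after DMSO, and the difference of 0.45 ± 0.16 did not pass (adjusted p = 0.0566, 95% interval 0.06 to 0.84). MFA1 and BAR1 were thus the a-cell genes on which the compound arrays differed most. In both the lower array was replicate 1, the one with the 3' to 5' difference of 1.43. That difference cannot be told apart here from any other difference between the compound arrays.

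Without CID 3528206 replicate 1, the log2 difference after the compound was 0.66 for MFA1 and 0.70 for BAR1. Without replicate 2 it was 0.24 for MFA1, whose call ended, and 0.21 for BAR1. In both cases the compound was 1 array, assumed to vary like the DMSO and rapamycin arrays, from which the spread was taken, and the same holds for any group left with 1 array. In all, the call for MFA1 ended in 9 of its 16 alternatives. Among them were the fits without either DMSO array, without either rapamycin array, on the 4 arrays compared and with all probe sets. It also ended with an adjusted p under 0.01 and after quantile normalization (0.15, adjusted p = 0.355, the highest). The call for STE6 ended without DMSO replicate 2 and after quantile normalization (0.13, adjusted p = 0.225, range 0.00928 to 0.225). Quantile normalization also lowered STE2 to 0.42 and AGA2 to 0.36, and left 3 genes called, MFA2, STE2 and AGA2. Without DMSO replicate 2 the same 3 genes remained called.

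The compound was then set directly against rapamycin, at their different concentrations. MFA1, MFA2, STE2 and AGA2 read lower after the compound than after rapamycin on both arrays, while STE6 read higher on both. Over all genes tested, 63.5% had no overlap between the agents, and 32.2% had none with the compound higher. Only STE2 passed the test, lower after the compound by 0.42 ± 0.11 on the log2 scale (-0.42, adjusted p = 0.0427), where 9.43% of all genes tested were lower, 9.32% higher and 18.8% different in either direction. The median log2 difference of the 6 was -0.31, beside -0.003 for all genes tested.

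The difference for MFA1 was -0.49 ± 0.15 (adjusted p = 0.0652, 95% interval -0.84 to -0.13) and that for AGA2 -0.37 ± 0.10 (adjusted p = 0.0566, 95% interval -0.62 to -0.11). MFA2 differed by -0.25 ± 0.15 (adjusted p = 0.263, 95% interval -0.61 to 0.11). STE6 differed by 0.16 ± 0.07 (adjusted p = 0.158, 95% interval -0.01 to 0.34), and BAR1, whose groups overlapped, by 0.13 ± 0.16 (adjusted p = 0.566, 95% interval -0.25 to 0.52). The intervals lay inside a 2-fold difference between the agents for each of the 6 genes, and those for MFA1, STE2 and AGA2 left out 0 before adjustment. They use a single spread per gene shared by all groups. Replicates differed more for the compound (standard deviation over genes 0.27) than for rapamycin (0.12), so the intervals may be too narrow here. The call for STE2 ended without any single array other than CID 3528206 replicate 2, and in the fit on the 4 arrays compared (highest adjusted p = 0.244, range 0.0201 to 0.244). With only replicate 1 of the compound, the log2 differences of MFA1, STE2 and AGA2 were -0.70, -0.41 and -0.38. That of BAR1 was -0.11 with only replicate 1 and 0.38 with only replicate 2.

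Within each gene, the order of the group means was DMSO, compound and rapamycin for MFA1, MFA2, STE2 and AGA2. All neighbours in that order passed the test for STE2 alone. For MFA1, MFA2 and AGA2 the step from DMSO to the compound passed and that from the compound to rapamycin did not. For STE6 and BAR1 the order of the means was DMSO, rapamycin and compound, where only the outer pair of STE6 passed.

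**Figure D3:**
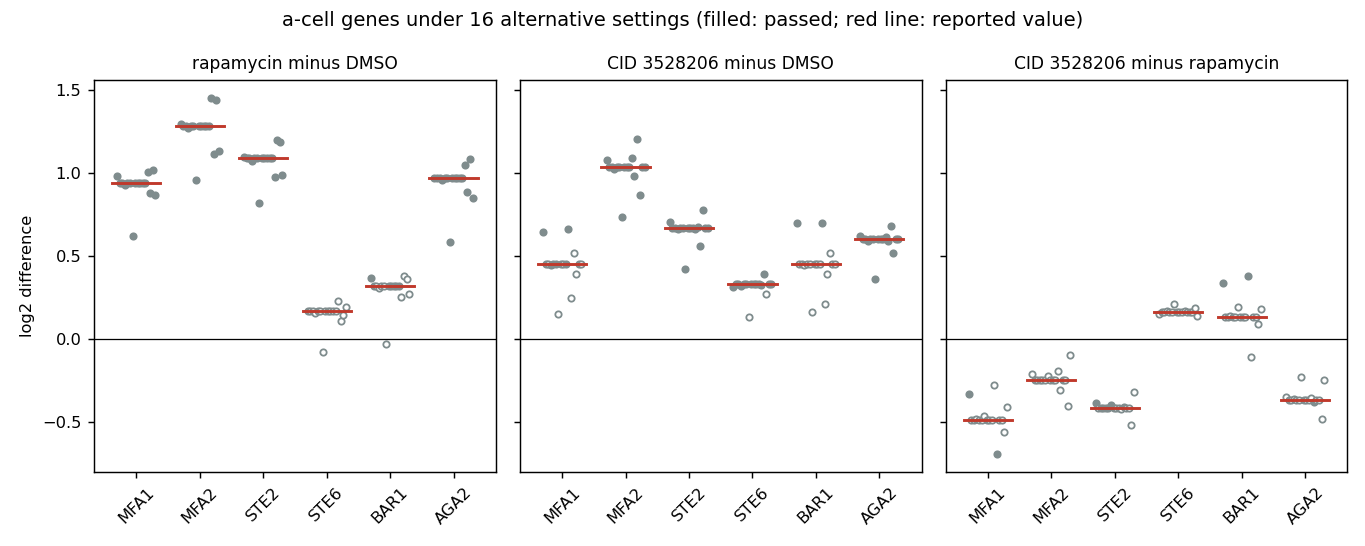
Log2 difference of each a-cell gene in the 3 comparisons under the 16 alternative settings that keep the genes (grey points, side by side within a gene, filled where the gene passed) with the reported value as a red line. MFA2, STE2 and AGA2 stay above 0 and filled in both comparisons with DMSO, and the points for BAR1 lie on both sides of 0 in the comparison of the compound with rapamycin.

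Further a-cell genes were measured beside the 6. ASG7, another gene that only a cells express, read 5.47 and 5.37 after DMSO, 5.52 and 5.77 after rapamycin and 5.66 and 5.69 after the compound. Its log2 differences against DMSO were 0.23 ± 0.10 (adjusted p = 0.0985, and -0.06 after quantile normalization) and 0.26 ± 0.10 (adjusted p = 0.0746), and neither passed. AGA1, the wall anchor of a-agglutinin that both mating types make, rose by 0.73 ± 0.12 after rapamycin (adjusted p = 0.00414) and by 0.42 ± 0.12 after the compound (adjusted p = 0.0315). The second of these calls ended without either DMSO array and without CID 3528206 replicate 1 (highest adjusted p = 0.14).

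Genes of alpha cells moved the other way. Of 6 measured after rapamycin, 4 fell and MF(ALPHA)1 and SAG1 did not pass (-0.06 ± 0.09 and -0.30 ± 0.15), where 26.2% of all genes tested fell. After the compound 6 of the 6 fell, where 24.4% of all genes did. The median log2 difference of the 6 was -0.51 after rapamycin and -0.67 after the compound. MF(ALPHA)2, an alpha-factor gene, fell from 12.36 and 12.57 after DMSO to 9.55 and 9.49 after rapamycin (-2.95 ± 0.15) and to 9.01 and 8.59 after the compound (-3.67 ± 0.15). Between the agents only MF(ALPHA)2 of the 6 was called, lower after the compound (-0.72 ± 0.15, adjusted p = 0.0257), where 9.43% of all genes were lower. That call ended in 7 of its alternatives. The a-factor receptor gene STE3 changed by -1.84 after rapamycin and by -1.75 after the compound on the log2 scale. HMLALPHA1, an activator of alpha genes whose probe set can also hybridise MATALPHA1, fell by 0.62 and 0.84, and the a-factor barrier gene AFB1 by 0.40 and 0.33. SAG1, the agglutinin of alpha cells, fell by 0.50 after the compound and MF(ALPHA)1 by 0.35, calls that ended without either DMSO array. That for SAG1 also ended without CID 3528206 replicate 2.

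Averaged over the 6 a-cell genes, the log2 level was 6.54 to 6.61 after DMSO, 7.29 to 7.45 after rapamycin and 7.08 to 7.25 after the compound. Over the 6 alpha cell genes it was 12.26 to 12.38, 11.25 to 11.33 and 11.01 to 11.15 in the same order. The 2 averages thus moved in opposite directions, without overlap between the treated and the DMSO arrays. The part of the alpha cell genes in the a-cell result was not tested. Of the 4 genes that BY4741 lacks, LEU2, URA3 and MET17 fell after rapamycin, where 26.2% of all genes tested fell. After the compound all 4 fell, where 24.4% of all genes did, and the call for HIS3 ended without DMSO replicate 2. MET17 was higher after the compound than after rapamycin (0.31 ± 0.065, adjusted p = 0.0257), a call that ended in 7 of its alternatives. HIS3 differed by -0.23 after rapamycin and did not pass (adjusted p = 0.0542), but passed in 9 of its 17 alternatives.

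Genes that haploid cells of either type express were called after rapamycin at shares near those of all genes. Of 10, 3 rose and 3 fell after rapamycin, and 3 rose and 5 fell after the compound, with medians of -0.06 and -0.18. Over all genes tested, 26.5% rose and 26.2% fell after rapamycin, and 26.1% rose and 24.4% fell after the compound. HO, the mating-type switching endonuclease gene, changed by -1.46 after rapamycin and by -2.33 after the compound, and FAR1, a cell cycle inhibitor of the pheromone response, by -0.80 and -0.90. RME1, a repressor of meiosis, rose by 0.86 ± 0.08 and 0.76 ± 0.08. STE4, the G protein beta subunit, fell by 0.47 after rapamycin and by 0.76 after the compound. Between the agents 2 of the 10 were called, both lower after the compound, where 9.43% of all genes were lower. They were HO (-0.865 ± 0.07, adjusted p = 0.00265) and STE4 (-0.30 ± 0.07, adjusted p = 0.042). The call for STE4 ended in 7 of its alternatives.

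Genes that act on the a-factor precursor, which gains a farnesyl lipid and is then trimmed and methylated, passed about as often as all genes did, at 52.7% after rapamycin and 50.5% after the compound. Of 7, 1 rose, 3 fell and 3 did not pass after rapamycin, and 1 rose, 2 fell and 4 did not pass after the compound. AXL1, a protease that trims the precursor, rose by 0.55 ± 0.11 and 0.56 ± 0.11. RAM1, a subunit of the farnesyltransferase, fell by 0.58 and 0.53, and the CAAX protease gene RCE1 by 0.39 and 0.40. STE24, the other CAAX protease gene, fell by 0.39 after rapamycin and differed by -0.16 ± 0.08 after the compound. RAM2, STE14 and STE23 did not pass in either comparison, with log2 differences of -0.20, -0.02 and -0.33 after rapamycin and -0.02, 0.18 and 0.22 after the compound. The calls for RCE1 ended without either DMSO array, and its rapamycin call also without either rapamycin array. Those for AXL1 (both) and STE24 ended without DMSO replicate 2, and their rapamycin calls also without rapamycin replicate 1. Of the 3 genes that process alpha-factor, STE13 fell by 0.71 and 0.43 (the second call ended without any DMSO or rapamycin array), while KEX1 (0.16 and -0.001) and KEX2 (-0.15 and 0.09) did not pass.

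**Figure D4:**
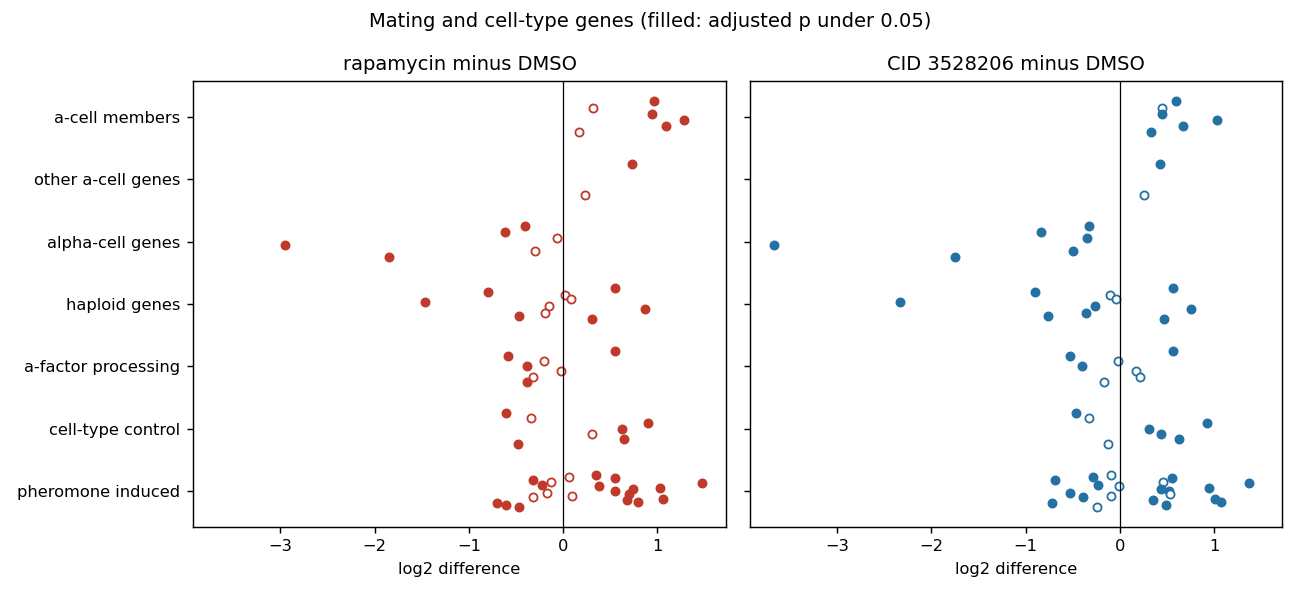
Log2 difference of each measured gene by list (rows) after rapamycin (left) and after CID 3528206 (right), with filled points for an adjusted p under 0.05; HMRA1, at background, is left out. The a-cell members lie between 0.17 and 1.28, while the alpha cell genes lie below 0, down to -3.67.

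Among regulators of cell type, both corepressor genes were lower after rapamycin, CYC8 by 0.61 and TUP1 by 0.48. After the compound CYC8 fell by 0.46 and TUP1 differed by -0.13 ± 0.07 (adjusted p = 0.159). TUP1 was higher after the compound than after rapamycin (0.35 ± 0.07, adjusted p = 0.0214), a call that ended in 7 of its alternatives (highest adjusted p = 0.165). MCM1 did not pass in either comparison (-0.35 ± 0.14 and -0.33 ± 0.14). The silencing genes, whose products keep the spare mating-type copies off, were mostly higher. SIR1 rose by 0.90 ± 0.06 after rapamycin and by 0.92 ± 0.06 after the compound, and SIR4 by 0.64 ± 0.10 and 0.63 ± 0.10. SIR2 rose by 0.62 ± 0.10 and 0.31 ± 0.10, and SIR3 by 0.44 ± 0.12 after the compound, with 0.30 ± 0.12 after rapamycin that did not pass. The compound call for SIR3 ended without either DMSO array. That for SIR2 ended in 10 of its 16 alternatives, among them without any single array other than CID 3528206 replicate 2 and after quantile normalization (highest adjusted p = 0.225). The alpha2 genes were not analysed here.

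Pheromone-induced genes are those that haploid cells raise when they sense a partner. Of 21, 11 rose and 5 fell after rapamycin, and 9 rose and 6 fell after the compound, with a median log2 difference of 0.35 in each case. Over all genes 26.5% rose and 26.2% fell after rapamycin, and 26.1% and 24.4% after the compound, so the share that fell was near that of all genes. GIC2, a Cdc42 effector, rose by 1.47 ± 0.07 and 1.37 ± 0.07, and PRM5 by 1.05 ± 0.06 and 1.01 ± 0.06. MSG5, a phosphatase of the pathway, rose by 1.02 ± 0.08 and 0.94 ± 0.08, and PRM7 by 0.80 ± 0.09 and 1.08 ± 0.09. Members of this list that fell include FUS1, a cell fusion gene and a standard reporter of the pathway, by 0.32 and 0.68. Between the agents 1 of the 21 was higher after the compound and 4 were lower, where 9.32% and 9.43% of all genes were. PRM9 was higher by 1.11 ± 0.07 (adjusted p = 0.00256), having fallen by 0.61 after rapamycin and risen by 0.49 after the compound. CIK1 (-0.45), KAR4 (-0.39) and FUS1 (-0.36) were among the lower, calls that ended in 7, 7 and 8 of their alternatives.

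The S. pombe probe sets give a view of probe sets without a yeast target of their own. With all probe sets in the fit, 0.573% of the 1746 were called higher and 3.49% lower after rapamycin, and 0.229% higher and 2.18% lower after the compound. Their median log2 difference was -0.06 after rapamycin and -0.04 after the compound. Their median level was 3.28 to 3.34 over the arrays, under that of the a-cell genes. A shift of probe sets at the level of the a-cell genes was not tested. In that same fit the a-cell genes MFA2, STE2 and AGA2 were called higher after both agents, MFA1 after rapamycin and STE6 after the compound. Of all 10928 probe sets in it, 1253 were called higher after rapamycin and 1210 after the compound.

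Genes next to the 6 on the chromosomes were also counted. Of the 12 protein-coding neighbours, by gene order in the RefSeq annotation, 10 were measured. Of these, 4 rose, 3 fell and 3 did not pass after rapamycin, and the counts after the compound were the same. Over all genes, 26.5% rose and 26.2% fell after rapamycin, and 26.1% and 24.4% after the compound. YNL146W, next to MFA2, fell by 0.75 after rapamycin and by 1.07 after the compound, where MFA2 rose. HOP2, next to AGA2, rose by 0.76 and 0.98, and BST1, next to STE2, rose by 0.49 and 0.54.

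The genes whose profile over the 6 arrays was nearest to the mean of the 6 a-cell genes, each centred on its own mean, were FMP52, MIG3, CAF120, POP8 and SPG5. Their root mean square distance from that mean ran from 0.04 to 0.06 log2 units, with a median of 0.39 over the other genes. Among the a-cell genes themselves AGA2 lay nearest (0.10) and STE6 farthest (0.27), and 69 of the other genes lay nearer than AGA2. FMP52, a mitochondrial protein gene, read 11.51 and 11.57 after DMSO, 12.26 and 12.41 after rapamycin and 12.02 and 12.16 after the compound. With 6 arrays in 3 groups, this likeness is a description of their shared steps.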

How the data were processed

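Expression was measured on 6 Affymetrix yeast arrays, 2 per group, with groups taken from the sample titles. The deposited unit is log2, 1 value for each probe set, from RMA per the submitters' processing notes (version and settings not given in the sources used here). RMA tends to compress differences near background, where some of these genes lie. Of 10928 probe sets, 5498 named 1 S. cerevisiae gene in the platform annotation and gave 5449 genes, with symbols updated through RefSeq R64. For 47 genes with several probe sets the one with the highest mean was used, and each a-cell gene had 1, without the suffix of sets that can hybridise several genes.

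A limma fit (version 3.58.1, R 4.3.3) of group means took all 6 arrays (3 residual degrees of freedom, two-sided). On simulated data it called 46 to 49% of true changes of 0.5 log2 units and 88% of those of 1. Those data had equal spread in all groups and 100 genes changed at each size, unlike the arrays. The members and gene lists were chosen with earlier results of these data known, so no p-value is given for a list. The 6 members are named in every comparison. Against DMSO, the genes of lists of up to 8 and the 5 genes most alike are also named. From longer lists the 4 largest called changes are named in each comparison, and between the agents shorter lists give only called genes. Outside this rule are the values of FUS1 and PRM9 against DMSO, of STE4 after rapamycin, and of the neighbours YNL146W, HOP2 and BST1. They were added after the values were seen. Alternatives numbered 17, of which 6 left out 1 array each. Promoter and protein sequences were not used here.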

Additional observations from a re-analysis of the deposited data

How the results depend on the processing

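Of 17 alternatives, the filter that dropped the third of genes lowest in mean level held none of the 6 a-cell genes. The other 16 bear on them, but not all are separate fits. In each comparison, leaving out either array of the group not compared is the same fit as that on the 4 arrays compared. Tallies of alternatives count that fit repeatedly. After rapamycin 4 to 5 a-cell genes were called without any single array, after the compound 3 to 6, and between the agents 0 to 3. Where limma called 0 between the agents (without any DMSO or rapamycin array, with all probe sets, on the 4 arrays compared, with an adjusted p under 0.01, or with a trended and robust prior), 3 genes were lower at an unadjusted p under 0.05, or 0 without rapamycin replicate 2. After the compound 3 genes were called after quantile normalization and with an adjusted p under 0.01. Between the agents 3 were called with the 3' to 5' covariate, 1 higher and 2 lower.

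Over all genes tested, 2873 were called after rapamycin, 2752 after the compound and 1022 between the agents. Without any single array the counts were 1794 to 3698, 1553 to 3552 and 96 to 2646, and with an adjusted p under 0.01 they were 1872, 1706 and 214. Between the agents 409 were called with all probe sets, 397 on the 4 arrays compared and 1926 with the covariate. The replicate number as a block gave 4, 6 and 2 a-cell genes in the 3 comparisons, adding BAR1 after the compound (adjusted p = 0.017) and MFA1 between the agents (adjusted p = 0.0424), and 3195, 3082 and 1510 of all genes. Deviations of same-numbered arrays correlated between groups by 0.25 to 0.43, but the labels give no pairing and there are only 2 numbers.

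The reported differences whose direction turned had not passed. Quantile normalization gave -0.079 for STE6, -0.028 for BAR1 and -0.064 for ASG7 after rapamycin. The covariate gave 0.0009 for RAM2, -0.059 for STE23, 0.094 for KEX1 and -0.079 for KEX2 after the compound. Leaving out an array moved KEX1 between -0.12 and 0.12, KEX2 from -0.090 to 0.26 and STE23 from -0.063 to 0.50 after the compound, STE14 from -0.049 to 0.0088 after rapamycin, and BAR1 from -0.11 to 0.38 between the agents. Of these, KEX2 at 0.26 and STE23 at 0.50 passed without CID 3528206 replicate 2, and BAR1 at 0.38 without replicate 1. The cause was not tested. Quantile normalization took the median log2 difference of the 6 a-cell genes from 0.95 to 0.60 after rapamycin and from 0.53 to 0.26 after the compound, while the median of all genes moved from -0.02 to -0.06 and from -0.01 to -0.04.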
